A study of Homo sapiens with 6 samples.

Results

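Integrins, laminins and collagens are the cell's matrix receptors and the proteins those receptors hold. Genes of the 3 families were taken from a gene table of PC9 cells by symbol and by a minimum of 60 counts summed over all 6 libraries, with the binding partners ITGB1BP1, ITGB1BP2 and ITGB3BP left out. Of 58174 genes in the table, 83 had such a symbol, and 60 of these reached the minimum: 24 integrins, 10 laminins and 26 collagens. The genes were thus chosen by symbol and by total count over both groups, and the presence and level of the 60 genes are given as a description. PC9 is an established human lung adenocarcinoma line. Total RNA was sequenced from 3 PC9 libraries given an antagomir against tsRNA-5001a, called the knockdown here, and from 3 given a negative control antagomir, called the control. An antagomir is a modified antisense oligonucleotide that blocks a small RNA, and tsRNAs are fragments of transfer RNA. Both groups thus carried an antagomir. Gene counts do not measure the tsRNA, so its loss could not be checked. The labels do not name separate cultures for these libraries. The p-values therefore rest on differences between libraries that may be technical repeats.

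As background, an integrin is a pair of an alpha and a beta chain that spans the membrane and links matrix outside the cell to actin or keratin filaments inside. Laminins are trimers of an alpha, a beta and a gamma chain, and they form a sheet in the basement membrane beneath an epithelium. Collagens are trimers too: collagen IV builds the network of the basement membrane, fibrillar collagens build the fibrils of connective tissue, and other types such as collagens VII, XV and XVIII tie these structures together. Lung epithelial cells rest on such a membrane, and carcinoma cells meet it when they invade.

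Upstream sequence was chosen for LAMA2 and COL15A1, the members past edgeR's test. It was also chosen for the paired collagen IV genes COL4A5 and COL4A6, which share an upstream region and did not pass that test. The 250 bases before the annotated start of LAMA2, COL15A1 and COL4A5 are shown as the upstream regions of those genes. They come from RefSeq on GRCh38.p14, where 44 of the 60 genes had a matching entry. Capitals mark CG dinucleotides, the sites of DNA methylation. LAMA2 (chr6:128882888-128883137, plus strand), COL15A1 (chr9:98943657-98943906, plus strand) and COL4A5 (chrX:108439588-108439837, plus strand) read as follows.
LAMA2: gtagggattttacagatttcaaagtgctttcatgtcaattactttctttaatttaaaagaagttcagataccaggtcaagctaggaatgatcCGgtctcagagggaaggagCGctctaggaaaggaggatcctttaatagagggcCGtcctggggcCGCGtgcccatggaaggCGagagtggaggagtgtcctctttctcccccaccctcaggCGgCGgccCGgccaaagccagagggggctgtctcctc
COL15A1: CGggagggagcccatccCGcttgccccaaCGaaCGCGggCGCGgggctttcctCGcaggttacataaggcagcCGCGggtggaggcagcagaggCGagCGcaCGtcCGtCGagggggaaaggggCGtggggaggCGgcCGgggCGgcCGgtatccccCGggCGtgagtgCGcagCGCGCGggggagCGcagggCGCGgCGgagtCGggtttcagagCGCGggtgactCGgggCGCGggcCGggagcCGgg
COL4A5: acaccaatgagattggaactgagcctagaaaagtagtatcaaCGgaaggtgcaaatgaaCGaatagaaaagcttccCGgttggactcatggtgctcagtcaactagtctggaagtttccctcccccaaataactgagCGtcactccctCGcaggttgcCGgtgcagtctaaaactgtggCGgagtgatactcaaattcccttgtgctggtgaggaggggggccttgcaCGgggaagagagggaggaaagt

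The COL15A1 stretch held 38 CG dinucleotides at 76.8% GC, the LAMA2 stretch 9 at 53.2% and the COL4A5 stretch 8 at 51.2%, beside a median of 11 CG over all promoters of that length. Short motifs were searched on both strands: GGGCGG (42.5% of 34943 promoters), TATAAA (10.8%), CCAAT (32%), TGANTCA (6.59%), TGACGTCA (1.63%) and TGATGNAA (3.15%). COL15A1 held 1 GGGCGG, COL4A5 held 2 CCAAT, and none of the motifs was found in the LAMA2 stretch. A match here is a match of letters only. The RefSeq start of COL15A1 lies downstream of the gene start in the deposited table, so its stretch falls within the table's bounds of the gene. COL4A5 and COL4A6 are transcribed away from each other, with 379 bases between their starts, so the whole COL4A5 stretch lies between the starts of both genes. By RefSeq starts the same arrangement holds for COL4A1 and COL4A2 (126 bases between starts) and for COL4A3 and COL4A4 (418 bases). In the deposited table the bounds of COL4A1 and COL4A2 overlap. There COL4A1, on the minus strand, reaches 110307149, and COL4A2, on the plus strand, begins at 110305812.

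The libraries held between 32342017 and 40066223 gene counts, of which the 60 genes took 0.582% to 0.659% in the knockdown and 0.466% to 0.651% in the control. Libraries of 1 group differed from each other far beyond sampling noise, with a chi-square per degree of freedom between 32.4 and 83.3. Among the 36 members of at least 3 log2 CPM (CPM, a gene's counts over the TMM-scaled library total), control library 1 was the highest of its group for 28. Knockdown library 1 was the highest of its group for 21 of the 36. Knockdown libraries 1 and 2 also departed from their group in opposite ways along transcript GC content, the share of G and C bases. Over those 36 genes the Spearman correlation of a library's departure with GC was 0.80 in knockdown 1 and -0.76 in knockdown 2, and it was -0.67 in control 3. Over all genes the values were 0.58, -0.65 and -0.11. These are descriptions over genes that share libraries. ITGA2, a collagen-binding integrin alpha chain with 40.2% GC, shows the pattern at 103, 195 and 82.9 CPM in the knockdown. LAMA5, with a GC-rich transcript, went the other way at 1726, 1138 and 1360.1 CPM.

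**Figure D1:**
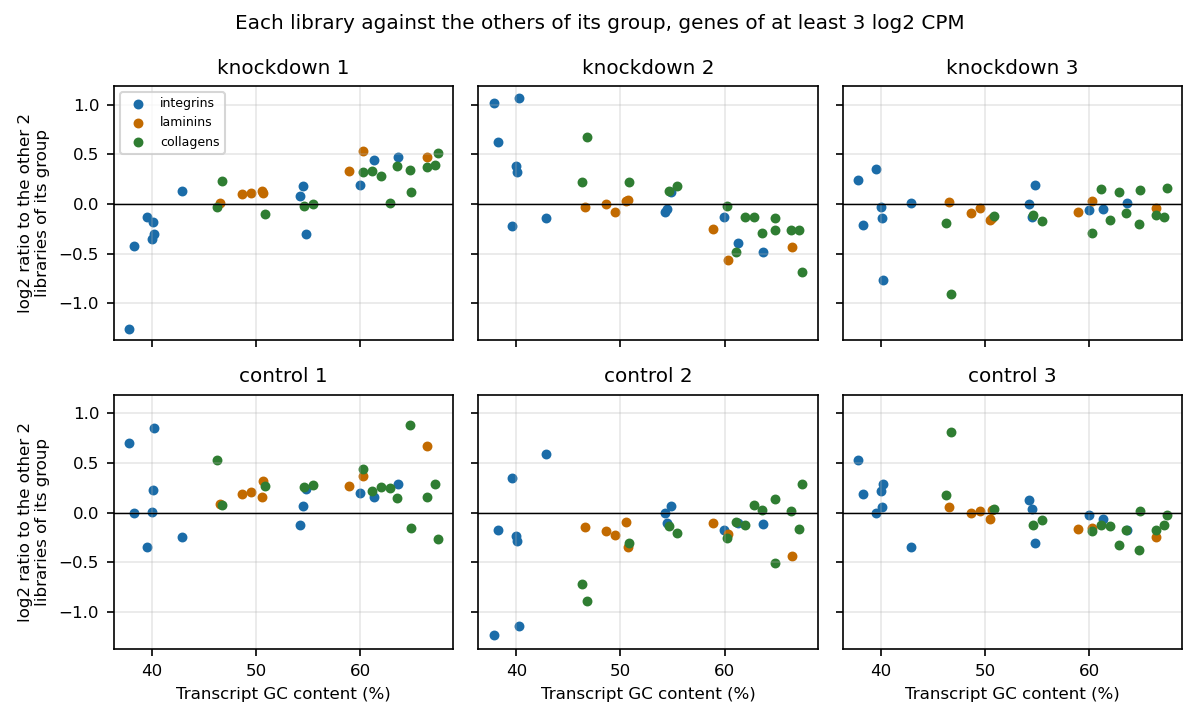
Each point is 1 of the 36 members of at least 3 log2 CPM, with its transcript GC content in percent on the x axis and the log2 ratio of the named library to the others of its group on the y axis. Points climb with GC in knockdown 1, fall with GC in knockdown 2, and lie mostly above 0 in control 1.

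Levels were compared between genes with the deposited TPM, a transcript abundance scaled by transcript length. Over all genes the median log2 TPM ratio of knockdown to control was 0.28, against 0.05 for CPM, so TPM served to order genes and to give shares within a library, and a higher TPM in the knockdown is not read as a difference. Among the laminins LAMA5, the alpha chain of the main laminin of epithelial basement membranes in lung, was the highest at 365 ± 63.0 TPM in the knockdown and 341 ± 95.6 in the control (SD, n = 3, as for all values below). LAMB3, a beta chain of epithelial laminin, followed at 195 ± 16.6 and 139 ± 26.2 TPM. LAMB1 and LAMB2, the other beta chains, came next at 94.8 ± 9.12 and 89.5 ± 17.2 TPM in the knockdown and did not differ from each other beyond their spread. LAMC1, the gamma chain that joins LAMB1 and LAMB2, was at 71.1 ± 2.31 TPM. LAMA4, a chain of vessel and mesenchymal laminins, and LAMA3, an alpha chain of epithelial laminin that joins LAMB3, were far lower at 17.5 ± 1.73 and 13.7 ± 0.722 TPM. LAMA2 and LAMC3 closed the order. LAMA5 thus gave 91.1 ± 1.66% of the summed laminin alpha TPM in the knockdown and 92.7 ± 0.718% in the control.

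Among integrin beta chains ITGB5, which pairs with the alpha v chain, stood at 228 ± 13.1 TPM in the knockdown and 201 ± 44.8 in the control. ITGB1, the partner shared by most alpha chains, stood at 202 ± 40.2 and 157 ± 23.3 TPM, so these neighbours were not separated beyond their spread. ITGB4, the hemidesmosome chain, was at 63.5 ± 8.36 and 58.7 ± 1.06 TPM, and ITGB6, the epithelial partner of alpha v that activates latent TGF-beta, at 43.0 ± 10.1 and 31.2 ± 5.52. The leading alpha chains were ITGA3, a laminin receptor chain, at 154 ± 21.8 and 142 ± 10.2 TPM, and ITGA5, the fibronectin receptor chain, at 89.2 ± 3.58 and 65.9 ± 7.90. ITGA6, the partner of ITGB4, and ITGAV, the alpha v chain, were lower at 25.9 ± 0.946 and 24.8 ± 8.31 TPM in the knockdown. ITGAE, known from lymphocytes within epithelia as a receptor of E-cadherin, was at 46.6 ± 6.35 and 48.9 ± 7.91 TPM. By CPM it lay below both, at 19.5 ± 2.38 in the knockdown and 22.9 ± 2.94 in the control. ITGA6 was at 72.7 and 66.8 CPM and ITGAV at 86.9 and 65.5. The reason for the different order was not tested, so the rank of ITGAE by TPM is uncertain. The leukocyte alpha chains ITGAD, ITGAL, ITGAM and ITGAX were all under 3 TPM in every library.

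The collagens were led by COL7A1, the chain of anchoring fibrils, at 86.3 ± 7.29 TPM in the knockdown and 75.3 ± 22 in the control. COL18A1, the source of endostatin, followed at 49.7 ± 5.58 and 47.3 ± 7.64 TPM, COL6A1 of beaded microfibrils at 46.2 ± 6.35 and 39.5 ± 3.17, and COL5A1, a minor fibril chain, at 49.8 ± 5.46 and 34.2 ± 8.55. The order of the last 3 lies within their spread. COL4A5, at 32.5 ± 6.15 and 34.3 ± 9.82 TPM, was the highest of the collagen IV chains.

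**Figure D2:**
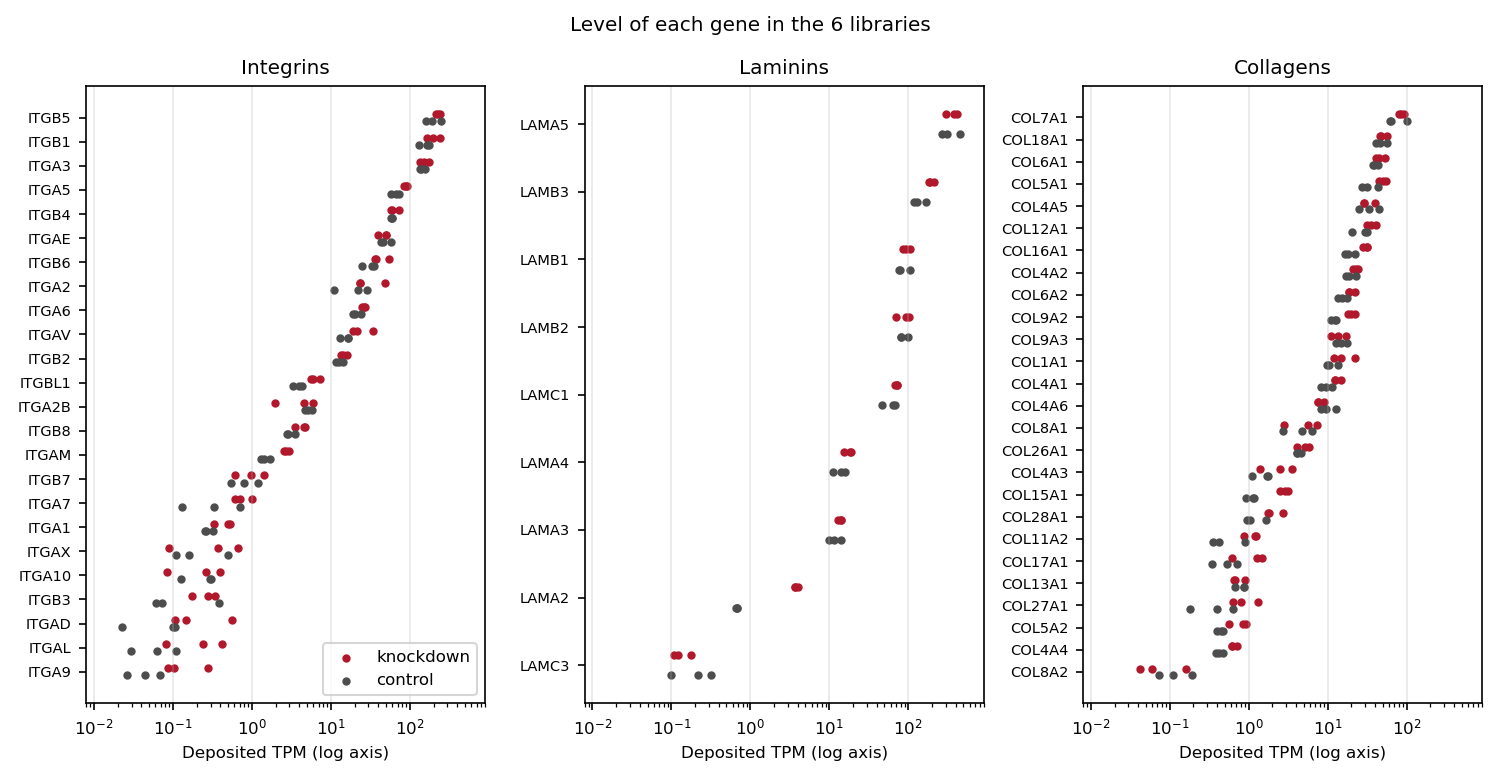
Deposited TPM of the members reported here on a log axis, knockdown libraries in red and control libraries in grey, with genes ordered by their mean in each family. LAMA5, ITGB5 and COL7A1 lead their families. The red and grey points of LAMA2 and COL15A1 lie apart, as do those of further genes such as ITGA5, LAMB3, COL9A2 and COL16A1. Knockdown TPM was shifted upward over all genes.

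Several partner chains of known mixed trimers were at 0 or far below the chain they join. COL1A1, the main chain of collagen I, had 9641 counts over all libraries while its partner COL1A2 had 2. COL5A1 had 42454 counts, against 533 for COL5A2 and 0 for COL5A3. COL6A1 and COL6A2 had 16716 and 7518 counts, and the alpha 3 chain COL6A3 had 21. COL9A2 and COL9A3, chains of a cartilage collagen, had 3438 and 2799 counts, and COL9A1 had 0. Of the 23 symbols under the minimum, 8 were at 0 in all libraries, among them the integrin chains ITGA4 and ITGA8. A count of 0 over 222239403 counts allows up to 3 counts, or 0.0135 CPM, in counting error alone. The members nearest above the minimum were ITGAD and ITGAL with 68 counts each and COL8A2 with 70. Nearest below it were COL25A1, with 28 counts in the knockdown and 0 in the control, ITGA11 with 25 and COL2A1 with 24.

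The comparison asked which of these transcripts differed when tsRNA-5001a was blocked. LAMA2, the alpha chain of the laminin of muscle and nerve sheaths, and COL15A1, a collagen of basement membrane zones related to collagen XVIII, rose. No integrin passed the test in either direction, and no member fell past it. The 2 genes are 3.33% of the 60 members, beside 1.17% of all 19040 genes tested (1.1% higher and 0.0735% lower), by edgeR's quasi-likelihood test with Benjamini-Hochberg adjustment over all genes at 0.05. All 60 members passed the low-count filter, 4 of them with under 30 counts in their lower group. In bulk RNA a change in the number of cells that make a transcript cannot be told apart from a change in RNA per cell.

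LAMA2 (ENSG00000196569, chromosome 6, 128883141 to 129516569, plus strand, in table coordinates that match GRCh38) stood at 3.12, 3.97 and 4.32 CPM in the knockdown libraries and at 1.10, 0.930 and 0.785 CPM in the controls. Every knockdown library was above every control library. The level rose 4.05-fold, a log2 fold change (called log2 ratio from here on) of 2.02 (standard error 0.25; edgeR, adjusted p = 0.0124). Its share of the summed laminin alpha TPM was 0.960 ± 0.126% in the knockdown and 0.192 ± 0.0449% in the control, so LAMA2 remained a minor laminin alpha transcript. Without knockdown library 2 or 3 the edgeR adjusted p was 0.0524 or 0.0538 and missed the threshold, and the log2 ratio lay between 1.90 and 2.14 whichever library was left out. An antisense gene, AL356124.2, shares 1.43% of the exon bases of LAMA2, and the use of strand in counting is not given.

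COL15A1 (ENSG00000204291, chromosome 9, 98943179 to 99070792, plus strand) stood at 7.47, 8.95 and 7.70 CPM in the knockdown and 3.93, 3.47 and 3.93 CPM in the control. The groups did not overlap and the 3 control values lay close together. The level rose 2.13-fold, a log2 ratio of 1.09 (standard error 0.18; edgeR, adjusted p = 0.0311). The call was lost whichever library was left out, with an edgeR adjusted p between 0.0723 and 0.119 and a log2 ratio between 0.99 and 1.12. The opposite-strand gene AL136084.3 shares 2.06% of its exon bases. COL18A1, its closest relative, was at 171, 126 and 134 CPM against 176, 142 and 145, with overlapping groups and a log2 ratio of -0.10 (edgeR adjusted p 0.784). The difference between COL15A1 and COL18A1 was not tested. Of 5 tested markers of stromal cells, PDGFRB rose as LAMA2 and COL15A1 did, DCN and TAGLN were higher without overlap but did not pass the test, ACTA2 and FBLN1 had log2 ratios below 0, and LUM and POSTN, untested, were at 0 counts. Their part in the LAMA2 and COL15A1 values was not tested.

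**Figure D3:**
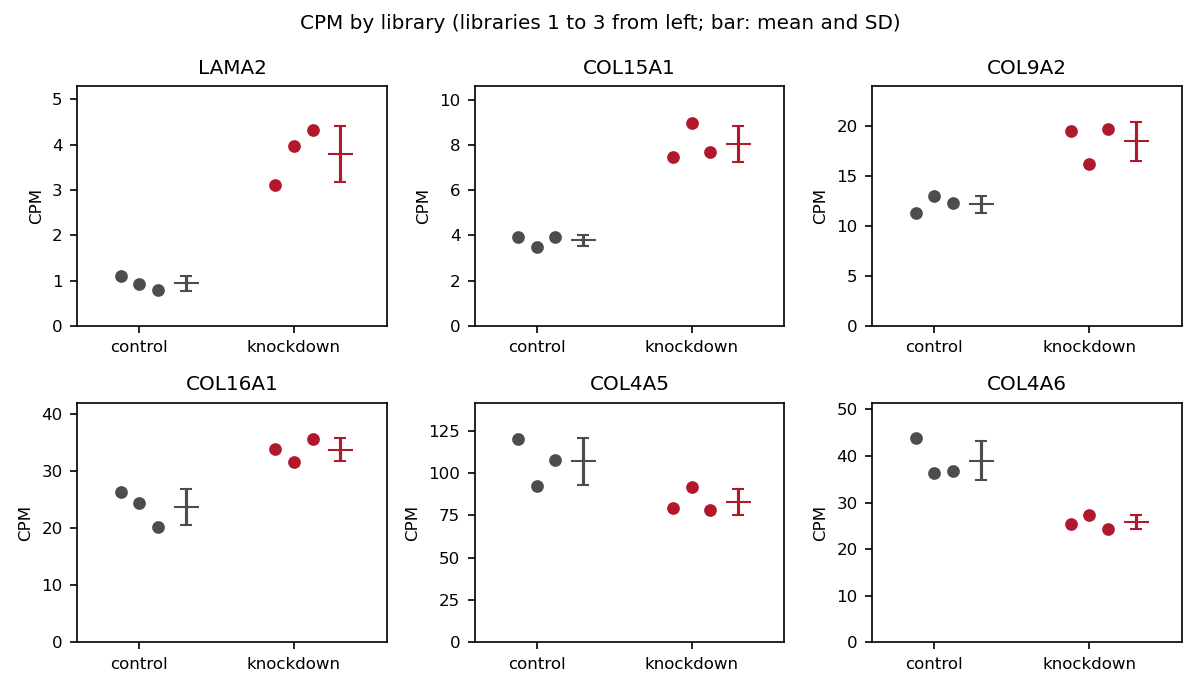
CPM of LAMA2, COL15A1, COL9A2, COL16A1, COL4A5 and COL4A6 in each library (points; libraries 1 to 3 from left) with the mean and SD of each group. Knockdown points lie above all control points in the first 4 panels and below them for COL4A5 and COL4A6.

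At an unadjusted p under 0.05 there were 12 members, 9 higher and 3 lower, or 20% beside 16.5% of all tested genes (9.77% higher and 6.71% lower). Collagens made up 10 of the 12, or 38.5% of 26 collagens, with 7 higher and 3 lower. Laminins gave 1 of 10 and integrins 1 of 24 (4.17%). CPM of the groups did not overlap for 16 members, 13 higher and 3 lower, or 26.7% beside 24.3% of all genes (13.4% higher and 10.8% lower). Over all members both shares lie near the background. By direction the members without overlap were 21.7% higher and 5% lower. By family they were 11 of 26 collagens (42.3%), 4 of 24 integrins (16.7%) and 1 of 10 laminins. The families were not compared by a test.

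None of the 6 collagen IV chains passed edgeR's test, and their log2 ratios ran from -0.60 to 0.37. COL4A6 (chromosome X, 108155607 to 108439497, minus strand), found with COL4A5 in epithelial and smooth muscle basement membranes, was at 25.5, 27.4 and 24.4 CPM in the knockdown and 43.8, 36.4 and 36.7 in the control. The groups did not overlap, with a log2 ratio of -0.60 (standard error 0.14; edgeR, adjusted p = 0.0988). DESeq2 and an edgeR fit with the GC trend of each library removed placed COL4A6 past the threshold, at adjusted p values of 0.0134 and 0.0492. Its neighbour COL4A5 (chromosome X, 108439844 to 108697545, plus strand) was at 79.1, 91.7 and 78.2 CPM against 120, 92.4 and 108, without overlap only because knockdown 2 lay just under control 2, and with a log2 ratio of -0.36 (edgeR adjusted p 0.255). COL4A1 and COL4A2, the chains of nearly every basement membrane, had log2 ratios of 0.25 and 0.01 (edgeR adjusted p 0.422 and 0.978), with overlapping groups. The sign for COL4A2 turned under DESeq2's scaling and with the GC trend removed. COL4A3 and COL4A4, known from the glomerulus and alveolus, had log2 ratios of 0.29 and 0.37 (edgeR adjusted p 0.568 and 0.409). Within the summed collagen IV TPM of a library, COL4A6 took 10.2 ± 0.248% in the knockdown and 13.5 ± 0.486% in the control, and COL4A1 16.7 ± 0.130% and 12.9 ± 0.716%. No library of either group overlapped with the other group in these 2 shares, for which no test was run.

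Among the other collagens COL9A2, a chain that decorates cartilage fibrils, was at 19.5, 16.2 and 19.7 CPM in the knockdown and 11.3, 12.99 and 12.3 in the control. The groups did not overlap, and its log2 ratio was 0.60 (edgeR, adjusted p = 0.122, or 0.0437 with the GC trend removed). COL9A3, its partner chain, went the other way at 13.5, 7.54 and 11.4 CPM against 12.7, 16.5 and 14.2, with overlap and an edgeR adjusted p of 0.398. The TPM ratio of COL9A2 to COL9A3 was 1.46 ± 0.145 in the knockdown and 0.812 ± 0.0914 in the control. COL16A1, a collagen bound to fibril surfaces, was at 33.9, 31.7 and 35.7 CPM against 26.5, 24.5 and 20.2, without overlap (log2 ratio 0.51, edgeR adjusted p 0.165). The transmembrane collagen genes had opposite signs. COL17A1, a hemidesmosome protein, had a log2 ratio of 0.57 and COL13A1, found at cell-matrix junctions, one of -0.66 (edgeR adjusted p 0.303 and 0.280).

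Fibrillar collagen genes, 5 in number, all had positive log2 ratios, beside 55.9% of all genes tested, and none passed the test. That share varies with abundance. It was 67.5% below 1 log2 CPM, where COL27A1 lay, and 65.8% between 1 and 3, where COL11A2 and COL5A2 lay. It was 44.9% between 5 and 7 log2 CPM, where COL1A1 lay, and 29.5% at 7 or more, where COL5A1 lay. COL27A1, a chain of cartilage, was at 2.19, 2.21 and 2.68 CPM against 1.20, 1.46 and 0.576, without overlap and with the largest difference among the collagens (log2 ratio 1.13, standard error 0.35, edgeR adjusted p 0.179). COL11A2, another cartilage chain, had a log2 ratio of 0.77 with control library 1 at 3.40 CPM inside the knockdown range (edgeR adjusted p 0.291). The abundant COL5A1 was at 244, 208 and 183 CPM against 205, 149 and 154, with overlap (log2 ratio 0.32, edgeR adjusted p 0.371). COL7A1 had control values of 432, 227 and 242 CPM, which enclose its knockdown values of 395, 317 and 307, at a log2 ratio of 0.18. COL6A1 was at 90.9, 66.2 and 73.1 CPM against 78.5, 74.4 and 67.5, a log2 ratio of 0.06 with full overlap. COL8A2, from Descemet's membrane and vessels, was under 1 CPM in every library and had a log2 ratio of -0.68 with a standard error of 0.61.

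None of the abundant integrin transcripts passed the test. ITGB5 was at 294, 273 and 283 CPM in the knockdown and 282, 298 and 316 in the control, with overlap and a log2 ratio of -0.08 (standard error 0.11, edgeR adjusted p 0.753). ITGB1 was at 314, 440 and 363 CPM against 340, 305 and 376 (log2 ratio 0.13, edgeR adjusted p 0.701). These genes carry most of the beta chain pool. ITGA5 was at 217, 195 and 188 CPM against 173, 161 and 171, without overlap, at a log2 ratio of 0.25 (standard error 0.11, edgeR adjusted p 0.312). ITGA3 was at 409, 279 and 327 CPM against 387, 343 and 349, where both the highest and the lowest library were knockdown ones.

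The pairs alpha 6 with beta 4 and alpha v with beta 6 serve as laminin receptor of hemidesmosomes and as receptor of latent TGF-beta. ITGA6 and ITGB4 had log2 ratios of 0.12 and -0.01 (edgeR adjusted p 0.777 and 0.979), the latter with its sign turning under upper-quartile and library-size scaling. ITGAV and ITGB6 had log2 ratios of 0.41 and 0.23 (edgeR adjusted p 0.329 and 0.466). ITGAV was at 69.9, 114 and 77.0 CPM against 65.1, 60.1 and 71.2, so the knockdown mean leaned on library 2. Its transcript has 38.3% GC. In that library ITGAV had a log2 departure of 0.63 from the others of its group. The GC-poor integrins ITGB8, ITGA2, ITGB1 and ITGB6 also lay above, with departures of 1.02, 1.07, 0.38 and 0.32. The GC-poor ITGBL1 and ITGA6 lay below, with departures of -0.22 and -0.14. The part of GC content in the ITGAV value was not tested.

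Among the rarer integrins ITGAM, the CD11b chain of myeloid cells, was at 4.20, 3.00 and 3.52 CPM in the knockdown and 2.14, 1.86 and 1.96 in the control. The groups did not overlap, and its log2 ratio was 0.85 (standard error 0.22; edgeR, adjusted p = 0.132). Its beta partner ITGB2 was at 23.0, 19.8 and 20.5 CPM against 23.2, 19.5 and 21.0, a log2 ratio of -0.01. ITGAD and ITGA9, chains of leukocyte and tenascin receptors, had log2 ratios of 0.91 and 0.84, but with standard errors of 0.61 and 0.54 at under 1 CPM. Lower values were seen for ITGAE (-0.23), the platelet chain ITGA2B (-0.20) and the collagen receptor chain ITGA10 (-0.16), each with overlapping groups and edgeR adjusted p values of 0.516, 0.761 and 0.908. Without knockdown library 2 the values of ITGA2B and ITGA10 turned to 0.03 and 0.22, and without control library 1 that of ITGA10 turned to 0.05.

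The other 9 laminins did not pass the test. LAMA5 was at 1726, 1138 and 1360.1 CPM against 2002, 1198 and 1309, with library 1 the highest of both groups and a log2 ratio of -0.09 (standard error 0.22, edgeR adjusted p 0.863). LAMA3 and LAMB3 had log2 ratios of -0.03 and 0.21 (edgeR adjusted p 0.932 and 0.488). The beta chain LAMB3 took 51.5 ± 2.58% of the laminin beta TPM in the knockdown and 44.2 ± 1.08% in the control, without overlap. LAMC1 and LAMA4 had log2 ratios of 0.15 and -0.09 (edgeR adjusted p 0.551 and 0.756), and LAMB1 and LAMB2 of -0.05 and 0.04. LAMC3, a rare gamma chain of skin and nerve, was at 0.449, 0.589 and 0.376 CPM against 0.829, 0.434 and 1.23, with overlap and a log2 ratio of -0.83 (edgeR adjusted p 0.399).

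**Figure D4:**
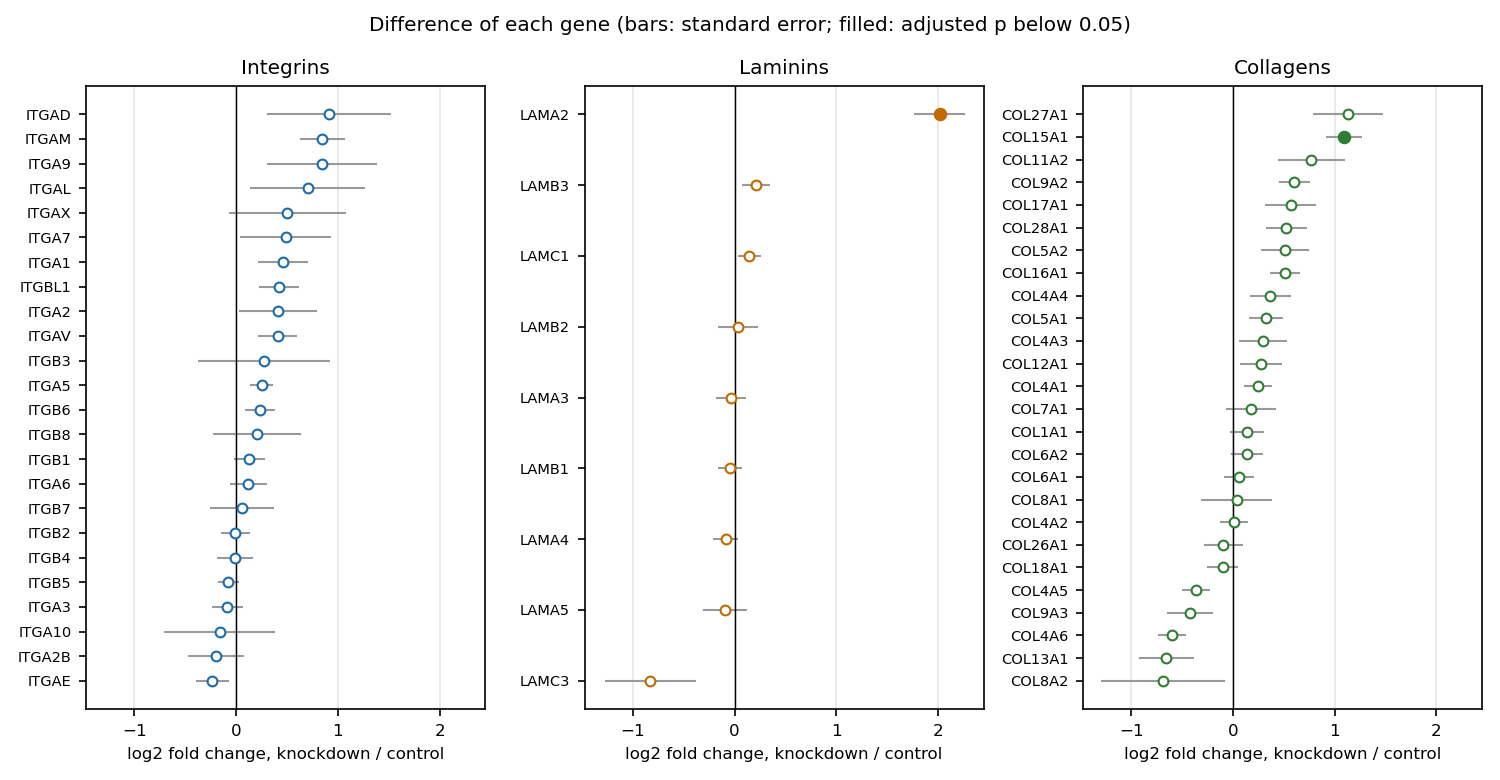
Log2 fold change of the members reported here, knockdown over control, with its standard error; filled points passed the edgeR adjusted p of 0.05. LAMA2 and COL15A1 are the filled points, at 2.02 and 1.09. The bars of many other genes reach 0, while those of others, such as COL4A6, COL9A2, COL16A1, COL27A1 and ITGAM, do not.

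The median log2 ratio was 0.24 over the integrins, -0.0012 over the laminins and 0.21 over the collagens, beside 0.05 over all genes tested. Of the 60 members 41 had a value above 0, beside 55.9% of all genes, and 19 a value below 0, beside 44.1%. Values were higher for genes of low abundance, among the members and in the whole table. Below 1 log2 CPM the median was 0.29 over all genes and 0.46 over 13 members, between 1 and 3 log2 CPM 0.15 and 0.53 over 11 members, and at 7 log2 CPM or more -0.11 and 0.04 over 15 members. The Spearman correlation of log2 fold change with abundance was -0.31 over the 60 members and -0.30 over all genes, as a description over genes that share libraries. Leaving out knockdown library 1 lowered the collagen median to 0.08, and leaving out control library 1 raised it to 0.37; without control library 2 it was 0.12. The integrin median was 0.13 without control library 2 and 0.16 without knockdown library 2. The laminin median was -0.13 when knockdown library 1 was left out and 0.12 when control library 1 was, so its sign depended on the library left out.

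**Figure D5:**
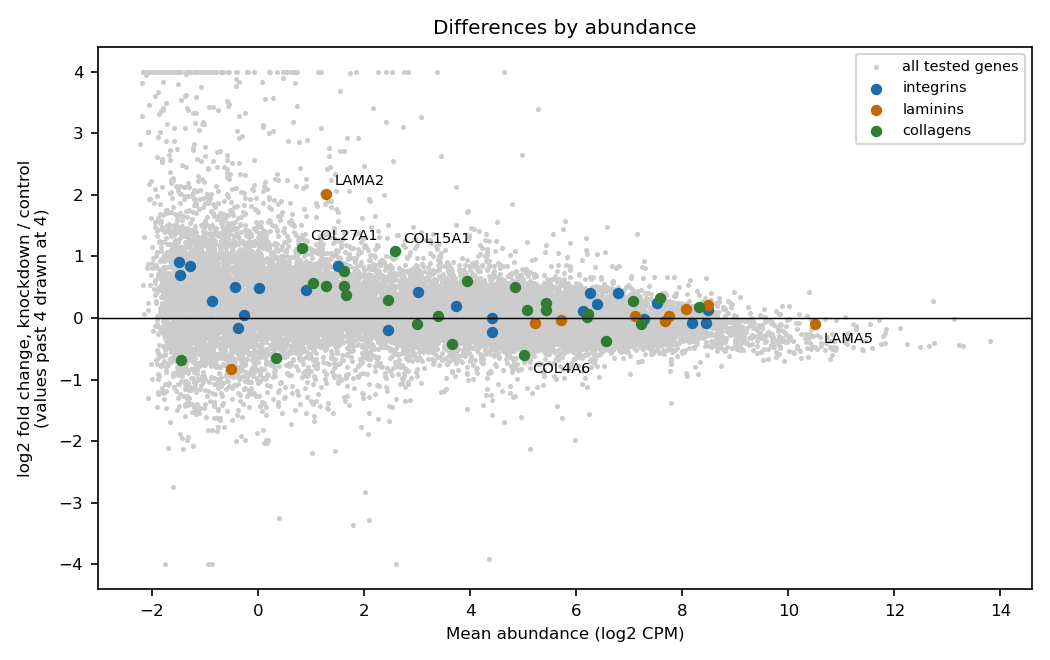
Log2 fold change (y axis) against mean abundance in log2 CPM (x axis) for all 19040 tested genes in grey and the members in colour, values past 4 drawn at 4. Grey and coloured points alike drift downward from left to right, and LAMA2 and COL15A1 sit at low abundance.

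Other genes of matrix adhesion were read from lists. Of all tested genes 1.17% passed edgeR's test, and 9.77% were higher and 6.71% lower at an unadjusted p under 0.05. DESeq2 called 444 genes higher and 190 lower in the whole table, and the fit with the GC trend removed 320 and 225. At such shares a short list can hold few or no called genes, so a count of 0 says little about it. Of 39 tested genes of focal adhesion and integrin signalling, from talin to the tetraspanins, none passed edgeR's test, 2 were lower at an unadjusted p under 0.05, and the median log2 ratio was -0.06; DESeq2 called 1 lower. The lowest p was that of PARVB, beta-parvin, which links integrins to actin, at 13.1 ± 1.94 CPM against 21.0 ± 3.76 (edgeR adjusted p 0.152). Of 13 further basement membrane genes and laminin receptors none passed edgeR's test, 3 were higher at an unadjusted p under 0.05 and DESeq2 called 1 higher. The lowest p there belonged to FBLN2, fibulin 2, at 1.72 ± 0.237 CPM against 0.446 ± 0.247 (edgeR adjusted p 0.0701). Of 29 genes of collagen folding and crosslinking 1 was higher and none lower past edgeR's test, with 2 higher and 2 lower at an unadjusted p under 0.05. With the GC trend removed 1 was higher and 1 lower. The gene higher by edgeR's test was SPARC, a collagen-binding protein of the matrix, at 4.52, 4.39 and 4.53 CPM against 2.35, 1.61 and 2.02 (log2 ratio 1.16, edgeR adjusted p 0.0486).

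Of 7 tested collagen receptors other than integrins, 1 was higher and none lower past edgeR's test. At an unadjusted p under 0.05, 2 were higher and 1 lower. The gene past the test was DDR2, a receptor kinase for fibrillar collagen. It rose from 0.208 ± 0.0629 to 1.80 ± 0.700 CPM, a log2 ratio of 3.11 (edgeR, adjusted p = 0.0167). Of 30 matrix proteases and inhibitors none passed edgeR's test (3 higher and 2 lower at an unadjusted p under 0.05). Over all tested genes 1.17% passed it, and 9.77% were higher and 6.71% lower unadjusted. MMP19, a secreted metalloprotease, had the lowest p, at 5.40 ± 1.25 CPM against 3.02 ± 0.180 (edgeR adjusted p 0.135). Of 19 other integrin ligands and matrix glycoproteins none passed it either (2 higher and 1 lower unadjusted). SPP1, osteopontin, had the lowest p there, at 60.3 ± 5.69 CPM against 44.9 ± 4.01 (edgeR adjusted p 0.188).

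Markers of cell type were read beside these values. Over all tested genes 1.17% passed edgeR's test, and 9.77% were higher and 6.71% lower at an unadjusted p under 0.05. Keratins 7, 8, 18 and 19, EPCAM and CDH1 were abundant in all libraries, as in an epithelial line, while the lung gene SFTPB had 2 counts in all and NKX2-1 104. None of the 11 tested epithelial markers passed edgeR's test. Only NKX2-1 was higher at an unadjusted p under 0.05, at 0.898, 0.912 and 0.564 CPM against 0.0802, 0.372 and 0 (edgeR adjusted p 0.220). The summed TPM of the epithelial list ran from 12515 to 16069 in the knockdown and 13492 to 14238 in the control. Of 12 fibroblast and stromal markers 5 were tested, with a median log2 ratio of 0.51 and 3 higher and none lower at an unadjusted p under 0.05. Only PDGFRB passed edgeR's test, at 7.55, 4.30 and 7.28 CPM against 1.02, 0.651 and 0.838 (log2 ratio 2.92, edgeR adjusted p 0.00502). DCN was at 1.37, 1.35 and 1.24 CPM against 0.615, 1.05 and 0.602 (edgeR adjusted p 0.264), and TAGLN at 9.11, 7.80 and 8.48 against 5.32, 6.79 and 5.76 (edgeR adjusted p 0.217), both without overlap. ACTA2 and FBLN1 had log2 ratios of -0.54 and -0.15 (edgeR adjusted p 0.563 and 0.658). The stromal list was split in level. FBLN1 had 99115 counts over all libraries, TAGLN 1609 and PDGFRB 833. The fibroblast genes LUM and POSTN were at 0 in all libraries, and PDGFRA, THY1 and FAP had 4, 6 and 18 counts. The summed TPM of the stromal list was 277 to 353 in the knockdown and 289 to 311 in the control. Of 8 endothelial markers 4 were tested and of 9 immune markers 4, with none past edgeR's test or at an unadjusted p under 0.05. Both lists were split. CDH5, PECAM1 and ESAM had 4902, 2455 and 1894 counts, and CD68 had 14063. By contrast EMCN was at 0, KDR, CLDN5, CD3E and HLA-DRA had 2 counts each, and PTPRC had 48. The lowest p of the endothelial list was that of PECAM1, at 12.2 ± 1.02 CPM against 9.81 ± 0.954 (edgeR adjusted p 0.354). In the immune list it was that of CD14, at 4.04 ± 0.143 CPM against 3.20 ± 0.0862 (edgeR adjusted p 0.402). Summed TPM was 27.4 to 31.7 against 18.5 to 24.0 for the endothelial list and 66.5 to 82.4 against 54.6 to 67.7 for the immune list. These sums carry the upward shift of knockdown TPM given above, and no difference is read from them.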

How the data were processed

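RNA of 3 knockdown and 3 control libraries of PC9 cells was sequenced on an Illumina instrument, mapped and counted per gene, per the labels' protocols. The aligner, the counter and any use of strand: not given in the sources used here. Per the submitters' processing notes the build was hg19, but 96.8% of 57836 shared genes had the coordinates of GENCODE release 29 on GRCh38, as did 50 of the 60 members. The deposited table gives whole-number counts per gene and library, used for every test, and TPM as made by the authors, used for levels between genes and for shares within a library.

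Genes were filtered with filterByExpr (minimum count 10), scaled by TMM and tested with edgeR 4.0.16 (R 4.3.3; quasi-likelihood F-test, Benjamini-Hochberg adjustment over 19040 genes, threshold 0.05). Standard errors were back-calculated from the F statistic. The biological coefficient of variation was 22.9%. DESeq2 1.42.0, limma-voom (limma 3.58.1), other scalings and filters, the replicate number as a block, an adjusted p of 0.01, leaving out each library and, chosen after seeing the data, removal of each library's GC trend were alternatives.

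Members and lists were chosen with earlier results of these data known. Members were named with values if past the test, among the 3 largest rises or falls or the 4 highest TPM of their family, or in the collagen IV pairs, the chains LAMA3 and LAMB3, or the pairs of ITGA6 with ITGB4 and ITGAV with ITGB6, 38 in all; 1 further laminin is counted among the members but not reported here. Others (COL9A2, COL9A3, COL16A1, COL17A1, ITGA2, ITGB2, and genes named for a missing partner or a total near the minimum) were named after their values were seen. From each list the genes past the test, or the lowest p, were named. Further cell type markers were named after their values were seen. Of 40 listed adhesion genes 39 were found, and of 32 other ligands 29. In all, 30 members share exon bases with another gene. For ITGBL1, ITGB3, ITGB7, ITGB6 and COL18A1 the share was 70.5, 51.6, 42.1, 20.6 and 16.4%, so their counts are uncertain.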

Additional observations from a re-analysis of the deposited data

How the results depend on the processing

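Of 19040 genes 223 passed edgeR's test (209 higher, 14 lower). The count was 147 with no filter, 143 with a stricter filter, 634 with DESeq2 (444 higher, 190 lower), 545 with the GC trend removed (320 higher, 225 lower), 45 at an adjusted p of 0.01, and 64 to 114 with 1 library left out. For the members the 2 calls became 1 with no filter, 4 with the GC trend removed (LAMA2, COL15A1 and COL9A2 higher, COL4A6 lower), 0 at an adjusted p of 0.01, and 0 to 1 with 1 library left out, 0 being the count without knockdown library 2 or 3. DESeq2 called 3, LAMA2 and COL15A1 higher and COL4A6 lower. LAMA2 was past 0.05 in 12 of 15 settings and COL15A1 in 7. With no filter COL15A1 had an edgeR adjusted p of 0.0552, where more genes were tested. The cause of the other changes was not tested.

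With the replicate number as a block 34 genes passed, all higher, and 0 members, with edgeR adjusted p values of 0.0918 for LAMA2 and 0.160 for COL15A1. Same-numbered libraries did not deviate together (correlations of 0.006, -0.098 and -0.033). The numbers are therefore not taken as pairs.

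With 1 library left out the collagen median ran from 0.084 to 0.369, the integrin median from 0.128 to 0.286 and the laminin median from -0.126 to 0.123. Scaling by library size alone moved the median of all genes from 0.05 to 0.17 and those of integrins, laminins and collagens to 0.36, 0.12 and 0.33. Signs turned for named genes with values near 0, none of them past the test. Under library size alone these were COL18A1 (0.0177), ITGA3 (0.0317), ITGB4 (0.106), ITGB5 (0.0465), LAMA3 (0.0870), LAMA4 (0.0339), LAMA5 (0.0207) and LAMB1 (0.0710), and ITGB4 also turned under upper-quartile scaling (0.0066) and the stricter filter (0.0124). COL4A2 turned under DESeq2 size factors (-0.0187), DESeq2 (-0.0182) and GC removal (-0.0031), and ITGB1 under GC removal (-0.00060). With 1 library left out the sign turned for COL18A1 -0.2901 to 0.000447, COL4A2 -0.138 to 0.1002, COL6A1 -0.122 to 0.147, ITGA10 -0.631 to 0.218, ITGA2B -0.368 to 0.0331, ITGA3 -0.292 to 0.024, ITGB1 -0.0184 to 0.205, ITGB4 -0.228 to 0.122, LAMA3 -0.144 to 0.078, LAMA5 -0.313 to 0.165, LAMB1 -0.135 to 0.0198 and LAMB2 -0.202 to 0.193. Counting depth limits the 4 members with under 30 counts in a group, and 3 libraries a group limit all values.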
